A study of Mus musculus with 6 samples.

Results

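The genes described here are the subunits of the ionotropic and metabotropic glutamate receptors and of the GABA-A and GABA-B receptors in nuclei of the mouse enteric nervous system, which lies within the wall of the gut and is made of neurons and glia. They were matched by symbol, from the family names Gria, Grik, Grin, Grid, Grm, Gabr and Gabbr. The families were chosen with earlier results of these data known. The match picked 49 of the 31053 genes in the count matrices. Of these, 47 encode receptor subunits: 4 AMPA, 5 kainate, 7 NMDA, 2 delta, 8 metabotropic glutamate, 19 GABA-A and 2 GABA-B genes. The other two are not receptors. One encodes a scaffold protein, and Grin1os is an antisense transcript that overlaps Grin1 (chr2:25291181-25319187, minus strand, GRCm38) from the opposite strand. Both were rare, with 21 and 17 UMIs (unique molecular identifiers, counts of single RNA molecules) in all nuclei analysed, and they were left out of the counts of receptor genes.

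The nuclei came from mice described as wild-type C57BL/6J, and how this fits with the nuclear tag named below was not resolved. There were 3 libraries of Stress (7 days of daily restraint), 1 library of Dexamethasone (7 days of injections of this synthetic glucocorticoid) and 2 libraries of Control. All were nuclei of the colon sorted on a DNA stain and on an INTACT tag, a label on the nuclear envelope. The driver of that tag, the number of animals per library, and their age and sex are not given in the sources used here, so p-values measure the spread between libraries, whichever source it has.

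Glutamate opens AMPA, kainate and NMDA receptors, which are cation channels assembled from several subunits, and it acts on the metabotropic receptors, which signal through G proteins. GABA opens the GABA-A receptor, a chloride channel, and acts on the GABA-B receptor, a G protein-coupled dimer. Delta receptors resemble the glutamate channels in sequence but act mainly as adhesion partners of secreted synaptic proteins. In the gut these receptors have been described on enteric neurons, where fast excitation runs mostly through nicotinic acetylcholine receptors.

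The 6 libraries held between 853 and 3042 barcodes and between 6057994 and 14838057 UMIs each, and 3430 nuclei remained after filtering. Of these, 442 were neuron-like, with 4406191 UMIs, and 881 were glia-like, with 3247884 UMIs. Before filtering, the median mitochondrial share per barcode was 13.4, 10.9 and 4.44% under Stress, 5.98% under Dexamethasone and 8.80 and 19.8% in Control. The share of barcodes kept was 30.5, 32.2 and 52.7% under Stress, 44.3% under Dexamethasone and 35.9 and 14.9% in Control. The neuron-like UMIs per library were 245279, 1246743 and 1370067 under Stress, 568543 under Dexamethasone and 622027 and 353532 in Control. Summed neuron markers stood at 14587 to 18343 CPM (UMIs per 1000000 UMIs of the class in that library) in neuron-like nuclei and at 335 to 509 CPM in glia-like nuclei, and 11 of the 12 markers had a UMI, with Tubb3 at 0 in both. The neuron clusters were called by their leading genes: Penk excitatory (89 nuclei), Vip inhibitory (103), Nmu sensory (28), and Nos1 (130) and Sst (92), for which no type passed the naming rule. The glia clusters were led by Frzb and Col11a1 (407 nuclei), Rnf122 and Nr4a3 (333) and Col28a1 and Scn7a (141). A cluster of 85 nuclei led by Penk and Tac1, 42 of them from Dexamethasone and with a median of 833 UMIs, was kept apart from the neurons. Between libraries, 3 barcode sequences were shared among the nuclei analysed. The receptor genes took no part in building the clusters, so their levels by cluster are a description, given with no test.

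Neuron-like and glia-like nuclei differed in the RNA levels of these receptor genes, although several, such as Gria1, Gria4 and Grik2, were found in both. Summed over the 47 genes, the level was 12523 ± 1379.6 CPM in neuron-like nuclei and 5636 ± 509.8 CPM in glia-like nuclei (SD, n = 6 libraries), and it was higher in neuron-like nuclei in 6 of 6 libraries. Of the 27 receptor genes with at least 20 UMIs in either class, 18 were higher in neuron-like nuclei in every library. For 13 genes the neuronal level was at least 10 times the glial one. Among those 27, Grik2, Grik3 and Gria3 were higher in glia-like nuclei in 6 of 6 libraries. By family, the kainate genes summed to less in neuron-like nuclei (2148 ± 324 CPM) than in glia-like nuclei (4044 ± 379.7 CPM), in 6 of 6 libraries. The other 6 families were higher in neuron-like nuclei in every library, from the AMPA genes at 1648 ± 114 CPM against 888 ± 139 CPM to the metabotropic glutamate genes at 1695 ± 600.3 CPM against 35.2 ± 12.3 CPM. The 3 genes Gabrq, Grm2 and Grm6 had no UMI in any nucleus, which allows a level of up to 0.681 CPM in neuron-like and 0.924 CPM in glia-like nuclei (3 counts of the class total, counting error only). The plot of levels by library shows the separation gene by gene.

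**Figure D1:**
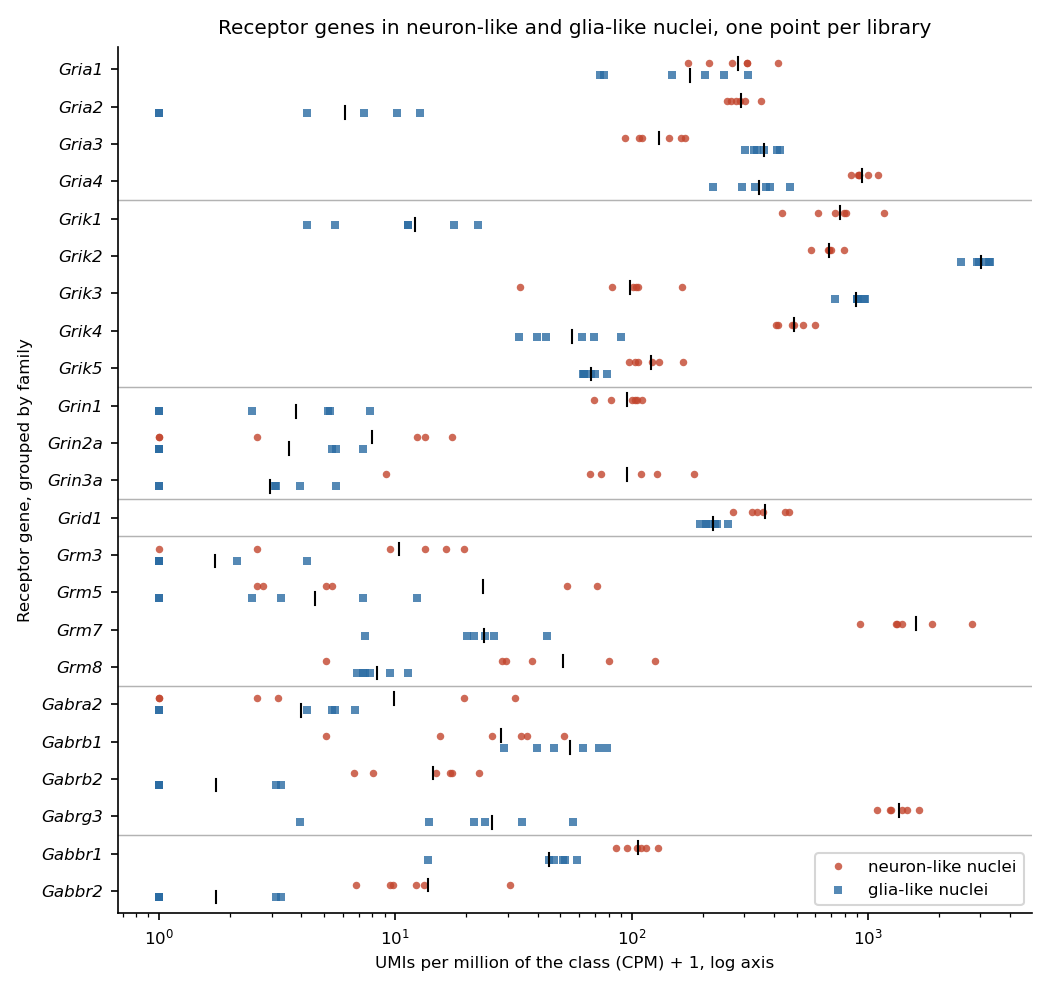
Level of receptor genes with at least 20 UMIs in neuron-like or glia-like nuclei, as CPM of the class plus 1 on a log axis; red circles are the neuron-like and blue squares the glia-like sums of each of the 6 libraries, and black ticks are their means. Grik2, Grik3 and Gria3 lie to the right in glia-like nuclei, and the points of Gria2, Grik1, Grin1, Grm7 and Gabrg3 lie far to the right in neuron-like nuclei with no overlap.

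UMI levels of different genes cannot be set side by side as they stand, since long genes held more of them. Across the 37 receptor genes with a neuronal UMI, the UMI count followed the length of the gene on the genome with a Spearman rho of 0.60 (a description over genes, which are not independent replicates). Per 100 kb of gene span, Gabbr1 stood at 364 CPM, Grin1 at 337 CPM, Gria4 at 251 CPM and Gria2 at 238 CPM in neuron-like nuclei. In glia-like nuclei the corresponding values were 435 CPM per 100 kb for Grik2 and 401 CPM for Grik3, with the next at 150.1 CPM for Gabbr1. Whether intronic reads were counted is not given in the sources used here.

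The AMPA receptor genes differed in where they were found. Gria2 encodes the subunit that, once its transcript is edited, keeps calcium out of the channel. It was a neuronal gene, with 253, 263 and 302 CPM in the Stress libraries, 287 CPM in the Dexamethasone library and 277 and 354 CPM in the Control libraries. In glia-like nuclei the same gene had 20 UMIs in all, 5.09 ± 4.86 CPM (SD, n = 6). Gria4 was found in both classes. Neuron-like nuclei had 852, 914 and 1000 CPM under Stress, 918 CPM under Dexamethasone and 1101 and 908 CPM in Control, and glia-like nuclei had 384, 219.8 and 469.6 CPM under Stress, 293 CPM under Dexamethasone and 333 and 372 CPM in Control. Gria3 was the AMPA gene with the lower neuronal level. Neuron-like nuclei held 167, 93.0 and 161 CPM under Stress, 142 CPM under Dexamethasone and 106 and 110.3 CPM in Control, against glia-like nuclei with 338, 362 and 426 CPM under Stress, 410.5 CPM under Dexamethasone and 331 and 301 CPM in Control. These sums of the 2 classes did not overlap. Nos1 neurons taken alone had 313 CPM pooled and 258 to 526 CPM by library, which overlapped the glial values. Gria1 was present in both classes and is taken up with the treatments. For Gria2 the epithelium-like nuclei, taken as a class that should lack these receptors, had 3.42 CPM, close to its glial level.

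Among the neuron clusters, Gria2 was highest in the Sst cluster at 606 CPM, and its lowest value there (490 CPM in Control 1) exceeded the highest value of any other cluster, 391 CPM in Vip neurons of Dexamethasone. That range covers the libraries with at least 5 nuclei of a cluster. Gria3 was highest in Nos1 neurons at 313 CPM and reached 19.5 CPM in the Sst cluster. Nmu sensory neurons had the lowest pooled level of all 4 AMPA genes: Gria1 had 21 CPM, Gria2 17.5 CPM and Gria3 15.7 CPM there, and Gria4 had 320.2 CPM. Those 28 nuclei had a median of 15317 UMIs each, the most of any neuron cluster.

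Kainate receptors are channels whose subunits Grik1 to Grik3 form the core and whose subunits Grik4 and Grik5 bind glutamate with high affinity. In glia-like nuclei Grik2 and Grik3 alone held 69.4% of all receptor UMIs. Neuron-like nuclei held Grik2 at 791, 687 and 677 CPM in the Stress libraries, 573 CPM in the Dexamethasone library and 699 and 682 CPM in the Control libraries. Glia-like nuclei held it at 2965, 3309 and 3250.5 CPM under Stress, 2901 CPM under Dexamethasone and 3176 and 2494 CPM in Control, so that the mean in glia was 4.40 times that in neurons. Grik3 was 9.16 times higher in glia-like nuclei. Its neuronal values were 32.6, 100.3 and 105 CPM under Stress, 104 CPM under Dexamethasone and 162 and 82.0 CPM in Control, and its glial values were 896, 965 and 975 CPM under Stress, 902 CPM under Dexamethasone and 911 and 723 CPM in Control. No library of one class reached the other for either gene. A Grik2 UMI was found in 844 of the 881 glia-like nuclei and a Grik3 UMI in 715, while the 437 epithelium-like nuclei held 27 Grik2 and 11 Grik3 UMIs in all. The median depth was 2364 UMIs in epithelium-like nuclei and 2247 to 4626 UMIs in the glia clusters. Grik2 overlaps 6 other annotated genes on its own strand, to which some reads could belong. Within the glia, Grik2 was higher in the Col28a1 cluster (5065, 3839.8 and 4817 CPM under Stress, 4517 CPM under Dexamethasone and 4353 and 4424 CPM in Control) than in the Frzb cluster (2556, 3183 and 3189 CPM under Stress, 2538 CPM under Dexamethasone and 3094 and 2272 CPM in Control) in each library, while Grik3 was lower in it in 5 of 6 libraries.

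The remaining kainate genes were mainly neuronal. Grik1 stood in neuron-like nuclei at 1174, 812 and 616 CPM in the Stress libraries, 433 CPM in the Dexamethasone library and 796 and 724 CPM in the Control libraries. Glia-like nuclei had 3.22, 16.7 and 10.3 CPM under Stress, 10.3 CPM under Dexamethasone and 21.3 and 4.56 CPM in Control. It was concentrated in 2 neuron clusters: Sst at 2172 CPM and Penk at 1439.9 CPM, against 155 CPM in Vip, 122 CPM in Nos1 and 26.2 CPM in Nmu neurons. The ranges of Sst and Penk overlapped each other, and none of their libraries of at least 5 nuclei fell to the level of the other clusters. Grik4, one of the high-affinity partners, stood in neuron-like nuclei at 599, 417 and 477 CPM under Stress, 529 CPM under Dexamethasone and 486 and 407 CPM in Control. Its values in glia-like nuclei were 38.7, 60.7 and 42.4 CPM under Stress, 32.4 CPM under Dexamethasone and 68.3 and 89.0 CPM in Control, all below the neuronal ones. Grik5, the other one, was the most even of the kainate genes. Neuron-like nuclei had 106, 103 and 96.3 CPM under Stress, 130.2 CPM under Dexamethasone and 164 and 122 CPM in Control, and glia-like nuclei had 61.2, 69.1 and 61.8 CPM under Stress, 66.2 CPM under Dexamethasone and 61.9 and 77.6 CPM in Control. Neuron-like values of Grik5 still lay above glia-like values within every library.

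NMDA receptors need the obligatory subunit encoded by Grin1 together with Grin2 or Grin3 subunits. Grin1 was neuronal, with 110.1, 81.0 and 103 CPM under Stress, 68.6 CPM under Dexamethasone and 99.7 and 105 CPM in Control, and had 8 UMIs in all glia-like nuclei. Few UMIs of its usual partners were found. Grin2a had 27 UMIs in neuron-like nuclei, Grin2b 16, Grin2c 0 and Grin2d 19. Reads of Grin1os cannot be told apart from those of Grin1 unless strand was used in counting, but Grin1os itself had only 5 neuronal UMIs. Grin3a, whose product lowers the calcium flow of NMDA receptors, stood at 51.2 CPM per 100 kb of span in neuron-like nuclei, against 9.34 CPM for Grin2d, the next NMDA gene after Grin1. Its level was 8.15, 182 and 127 CPM in the Stress libraries, 109 CPM in the Dexamethasone library and 65.9 and 73.5 CPM in the Control libraries. The Stress 1 value rests on 2 UMIs, and that library held 1 Nmu sensory nucleus. In the Nmu sensory cluster Grin3a stood at 616 CPM. Its values there were 293, 779.8 and 714 CPM under Stress, 271 CPM under Dexamethasone and 235 and 341 CPM in Control. They came from 1, 11 and 4 nuclei under Stress, 3 under Dexamethasone and 5 and 4 in Control. All lay above 222 CPM, the highest value among Sst libraries of at least 5 nuclei, which leaves out Dexamethasone with 3. The Nmu cluster of 28 nuclei held 352 of the 532 neuronal Grin3a UMIs. In smooth muscle-like nuclei Grin3a had 85 UMIs, or 82.1 CPM.

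Of the delta receptors, Grid1 reached in neuron-like nuclei 465, 340.1 and 322 CPM under Stress, 359 CPM under Dexamethasone and 447 and 269 CPM in Control, and in glia-like nuclei 226, 195 and 209.6 CPM under Stress, 229.5 CPM under Dexamethasone and 256 and 205 CPM in Control. Within each class 1 cluster was nearly without it. The Sst cluster had 28.3 CPM of Grid1 where the other neuron clusters had 241 to 508 CPM, and the Col28a1 glia cluster had 7.68 CPM where the Frzb and Rnf122 clusters had 289 and 220.1 CPM.

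The metabotropic glutamate receptors fall into group I, with Grm5, which couples to Gq, and groups II (Grm2, Grm3) and III (Grm4, Grm6, Grm7, Grm8), which couple to Gi. Grm7, a presynaptic receptor in the brain, stood at 174 CPM per 100 kb of span in neuron-like nuclei, where no other member passed 5.83 CPM. Its level was 2768, 1327 and 1318 CPM in the Stress libraries, 1864 CPM in the Dexamethasone library and 1400.3 and 925 CPM in the Control libraries. In glia-like nuclei it had 6.45, 23.0 and 25.2 CPM under Stress, 19.1 CPM under Dexamethasone and 42.7 and 20.5 CPM in Control. Penk excitatory neurons held 4148 of the 6396 neuronal Grm7 UMIs. Their level was 3738 CPM, against 1401 CPM in Sst, 636 CPM in Nos1, 555 CPM in Vip and 309.7 CPM in Nmu neurons. The lowest Penk library (2083 CPM, Control 2) lay above the highest Sst library of at least 5 nuclei (1582 CPM, Control 1). Grm8 was found in the same cluster, with 286 of its 319 neuronal UMIs, but unevenly. Penk neurons had 1, 92 and 153 UMIs under Stress, 19 under Dexamethasone and 14 and 7 in Control, and a single nucleus supplied 134 UMIs. Only Stress 3 had that many Grm8 UMIs.

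Grm5, of group I, was rarer and patchy. Grm5 had 99 neuronal UMIs, and 1 nucleus held 54 of them. Penk neurons of Stress 2 had 63 Grm5 UMIs and Sst neurons of Control 2 had 20, while the sums of all neurons in the other libraries were 6 or fewer. Of group II and the rest of group III, Grm3 had 55 neuronal UMIs spread over all 5 neuron clusters and Grm4 had 13.

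**Figure D2:**
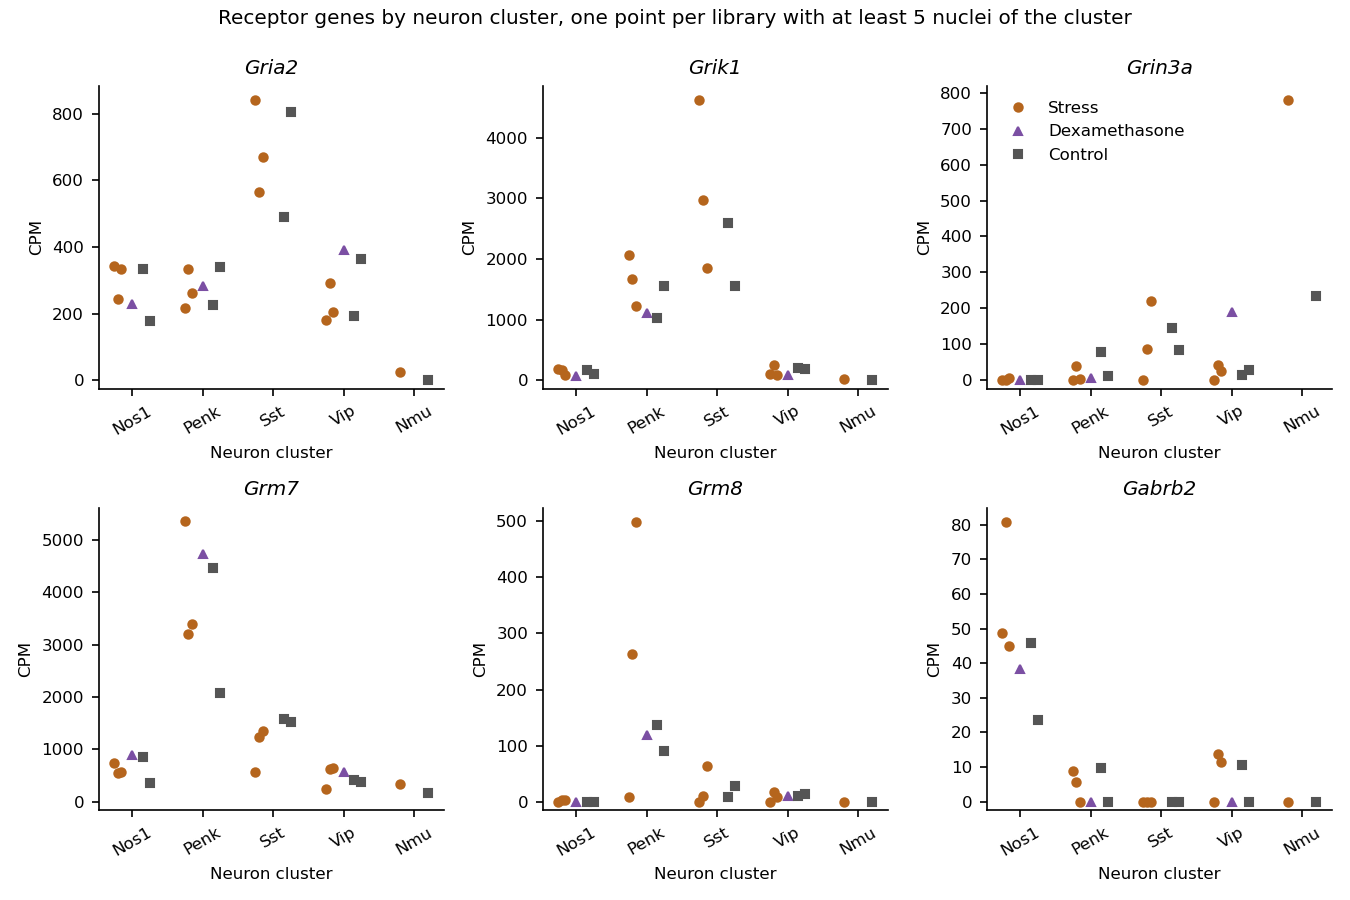
Level (CPM) of Gria2, Grik1, Grin3a, Grm7, Grm8 and Gabrb2 in each neuron cluster; each point is 1 library with at least 5 nuclei of the cluster (brown circles Stress, purple triangles Dexamethasone, grey squares Control). Gabrb2 is highest in Nos1 neurons (52.1 CPM pooled), Grm7 and Grm8 in Penk neurons (3738 and 258 CPM), Gria2 and Grik1 in Sst neurons (606 and 2172 CPM) and Grin3a in Nmu neurons (616 CPM).

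GABA-A channels usually join alpha, beta and gamma subunits, of which the alpha and beta subunits form the GABA site. In the neurons Gabrg3 had 5602 UMIs, and no alpha gene had more than 38. Part of that gap goes with gene length: per 100 kb of span Gabrg3 stood at 202 CPM and Gabra2, the highest alpha gene, at 6.43 CPM. Gabrg3 had 1655, 1091 and 1255 CPM in the Stress libraries, 1247 CPM in the Dexamethasone library and 1468 and 1397 CPM in the Control libraries. It was found in all 5 neuron clusters, at 868 to 1453 CPM. Of the alpha genes, Gabra2 had 38 neuronal UMIs, Gabra3 16, Gabra5 7, and Gabra4 and Gabra6 none. Of the Gabra2 UMIs, 33 lay in Nmu sensory neurons, 23 of them in Stress 2 and 8 in Control 2. Gabrb2 was a Nos1 gene among the neurons: 52 of its 66 UMIs lay there, at 48.8, 80.9 and 44.8 CPM under Stress, 38.3 CPM under Dexamethasone and 45.7 and 23.6 CPM in Control, and all of these were above the 13.9 CPM that no library of the Vip cluster passed. The mean of Gabrb1 was lower in neuron-like nuclei, with 4.08, 32.9 and 35 CPM under Stress, 24.6 CPM under Dexamethasone and 14.5 and 50.9 CPM in Control, than in glia-like nuclei, with 61.2, 46.0 and 77.9 CPM under Stress, 72.1 CPM under Dexamethasone and 27.7 and 38.8 CPM in Control. Control 2 was the 1 library in which the neuronal value was higher. Gabrd, Gabre, Gabrg1, Gabrp and the rho genes Gabrr1 to Gabrr3 each had 18 UMIs or fewer in either class.

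GABA-B receptors work as a dimer of the products of Gabbr1, which binds GABA, and Gabbr2, which couples to the G protein. Gabbr1 was measured in neuron-like nuclei at 114, 128 and 104 CPM under Stress, 109 CPM under Dexamethasone and 94.9 and 84.9 CPM in Control. In glia-like nuclei it stood at 58.0, 46.0 and 43.5 CPM under Stress, 51.5 CPM under Dexamethasone and 12.8 and 50.2 CPM in Control, below the neuronal value of every library. Gabbr2 had 63 neuronal and 3 glial UMIs. By neuron cluster Gabbr1 ran from 98.2 to 145 CPM. Nmu sensory neurons had 56.0 CPM of Gabbr2, Sst 23.0 CPM and Vip 12.9 CPM, while Nos1 and Penk neurons had 1 and 2 UMIs.

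**Figure D3:**
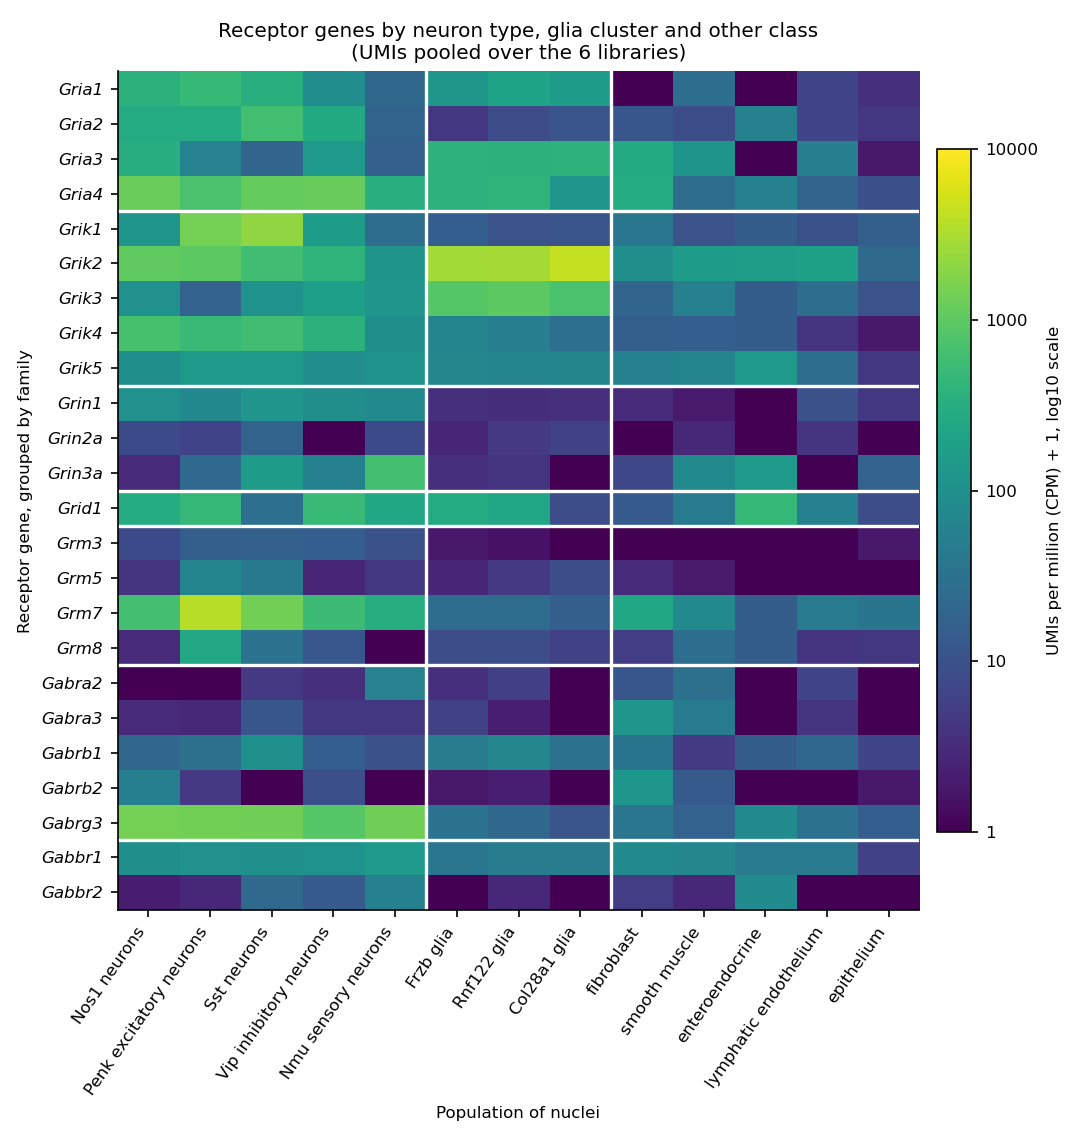
Level of receptor genes (rows, grouped by family from AMPA at the top to GABA-B at the bottom) in neuron clusters, glia clusters and 5 other classes (columns), as pooled CPM plus 1 on a log10 colour scale. Grik2 and Grik3 are bright across the 3 glia clusters, Gabrg3 across the 5 neuron clusters, and Grin1 is dark outside the neurons.

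A few of the genes were found outside neurons and glia. By the rule of a level at least 5 times that in both, with at least 20 UMIs, these were Gabra3 and Gabrb2. Gabra3 had 56 UMIs in the 205 fibroblast-like nuclei (120.0 CPM, 21.5 to 239.6 CPM by library) and 43 UMIs in the 313 smooth muscle-like nuclei (41.5 CPM, 0 to 77.5 CPM). Gabrb2 had 58 UMIs in fibroblast-like nuclei (124 CPM, 14.1 to 387 CPM), spread over 27 nuclei. Fibroblast-like nuclei also held 300.1 CPM of Gria4, 274 CPM of Gria3 and 238 CPM of Grm7. In the 23 enteroendocrine-like nuclei Grid1 had 32 UMIs. Epithelium-like nuclei had 35 CPM of Grm7 and 23.1 CPM of Grik2.

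Stress was compared with Control to ask whether restraint altered receptor expression. In glia-like nuclei 1 receptor gene changed: Gria1 (ENSMUSG00000020524, chr11:57011387-57330244, plus strand, GRCm38), which encodes the AMPA subunit best known for activity-dependent insertion at synapses, rose under Stress. Its glial level was 245, 312 and 204 CPM in the Stress libraries, 147 CPM in the Dexamethasone library and 72.5 and 75.3 CPM in the Control libraries. The 3 Stress libraries all lay above both Control libraries, and the Dexamethasone library lay between them. The underlying counts were 76, 149 and 178 UMIs under Stress, 100 under Dexamethasone and 34 and 33 in Control, from 196 glia-like nuclei with a UMI and at most 15 UMIs in any nucleus. The mean was 254 ± 54.5 CPM under Stress (SD, n = 3) and 73.9 ± 1.96 CPM in Control (SD, n = 2), and the fitted log2 fold change was 1.72 ± 0.25 (SE; edgeR quasi-likelihood test, adjusted p = 0.00286 over 6545 genes). Among all genes tested in glia-like nuclei 2.09% were called, 1.53% as higher and 0.565% as lower, and DESeq2 called 1.7% of its genes, Gria1 among them. Of the 13 receptor genes tested, 1 was called and 7 were above 0, with a median log2 fold change of 0.12 against −0.01 over all genes. Gria1 overlaps no other annotated gene.

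The glia clusters made up different shares of the glia in each library, so Gria1 was also read within them. Frzb nuclei numbered 85, 30 and 37 under Stress, 19 under Dexamethasone and 142 and 94 in Control, and Rnf122 nuclei numbered 22, 60 and 114 under Stress, 83 under Dexamethasone and 30 and 24 in Control. In the Frzb cluster Gria1 stood at 250.3, 287 and 150.5 CPM under Stress, 28.7 CPM under Dexamethasone and 81.4 and 71.8 CPM in Control. The Rnf122 cluster had 190.0, 328 and 220.3 CPM under Stress, 179 CPM under Dexamethasone and 73.1 and 127 CPM in Control. In the Col28a1 cluster the values were 339, 287 and 195 CPM under Stress, 90.3 CPM under Dexamethasone and 19.1 and 0 CPM in Control, from 1 UMI in both Control libraries together. Each Stress library was above both Control libraries in all 3 clusters. In the Frzb cluster alone the log2 fold change was 1.52 (edgeR adjusted p = 0.0462), and in the Rnf122 cluster alone it was 1.30 and did not pass (adjusted p = 0.093). Both fits were chosen after the data were seen. Neuron markers summed to 361, 402 and 509 CPM in glia-like nuclei under Stress, 431 CPM under Dexamethasone and 491 and 335 CPM in Control, and these ranges overlapped. Glia markers summed to 7123, 7784 and 7782 CPM under Stress, 6641 CPM under Dexamethasone and 6466 and 5677 CPM in Control. Smooth muscle markers summed to 190.2, 209 and 359.6 CPM under Stress, 733 CPM under Dexamethasone and 149 and 185 CPM in Control, with all 9 markers found. Sensory neuron markers, with Calca, Cck and Dlx3 at 0, summed to 61.2, 85.8 and 81.3 CPM under Stress, 67.7 CPM under Dexamethasone and 17.1 and 15.97 CPM in Control. Inhibitory motor neuron markers summed to 1499, 1942 and 1783 CPM under Stress, 1918 CPM under Dexamethasone and 1369.5 and 1307 CPM in Control. For lymphatic endothelium markers, with Ccl21a at 0, the sums were 90.2, 103 and 149 CPM under Stress, 218 CPM under Dexamethasone and 59.7 and 59.3 CPM in Control. Of the 22 marker lists, 7 had every Stress library above both Controls, namely those of glia, smooth muscle, lymphatic endothelium and pericytes and of sensory, inhibitory motor and secretomotor neurons. Mesothelium markers, at 2.28 CPM or less, had every Stress library below both Controls. The part of these sums in the result was not tested.

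**Figure D4:**
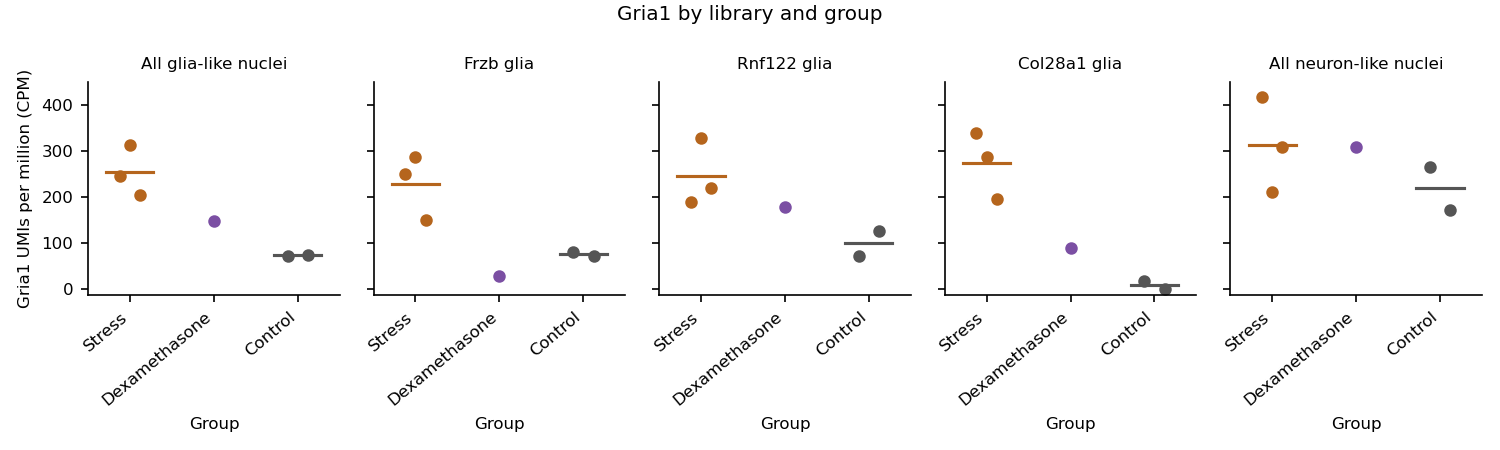
Gria1 level (CPM) by group in all glia-like nuclei, in each glia cluster and in all neuron-like nuclei; each point is 1 library and horizontal lines are means of the 3 Stress and the 2 Control libraries. In all glia-like nuclei the Stress libraries sit between 203.9 and 312 CPM and the Control libraries at 72.5 and 75.3 CPM; in neuron-like nuclei the 2 groups overlap.

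The other glial receptor genes moved less. Grik4 had the next smallest p, with a log2 fold change of −0.77 ± 0.29 (edgeR adjusted p = 0.245). Gabrb1 followed at 0.89 ± 0.34 (adjusted p = 0.260). Grik2 and Grik3, the 2 genes that held most glial receptor UMIs, had log2 fold changes of 0.12 ± 0.18 and 0.17 ± 0.18. With no limit on the mitochondrially encoded share, Grik4 was called as well (log2 fold change −1.02, adjusted p = 0.0333).

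In neuron-like nuclei no receptor gene was called under Stress. By edgeR 0.0% of the 7794 genes passed, and 805 (10.3%) had an unadjusted p under 0.05, among them 3 of the 23 receptor genes tested. DESeq2 called 16 genes (0.514%) and no receptor gene. Grik5 and Grm8 had the smallest p. Grik5 had a log2 fold change of −0.57 ± 0.20 (edgeR adjusted p = 0.392), and its Stress values of 106.0, 103 and 96.3 CPM were all under the Control values of 164 and 122 CPM. Grm8 had a log2 fold change of 1.54 ± 0.62 (adjusted p = 0.451). Its neuronal levels were 4.08, 79.4 and 125 CPM under Stress, 36.9 CPM under Dexamethasone and 27.3 and 28.3 CPM in Control, so Stress 1 lay below and the other Stress libraries above both Controls. Without a filter on low counts edgeR called Grm8 (adjusted p = 9.49e-04), and without Stress 3, the library of the nucleus with 134 UMIs, its log2 fold change was 0.96. Median log2 fold changes were 0.02 over the receptor genes tested and 0.01 over all genes. Gria1 itself stood in neuron-like nuclei at 416, 212 and 308 CPM under Stress, 308 CPM under Dexamethasone and 265 and 173 CPM in Control, where the groups overlapped (log2 fold change 0.41 ± 0.30, edgeR adjusted p = 0.668). Under Stress 9, 22 and 19 of the 32, 95 and 97 neuron-like nuclei were Penk neurons. In Control these were 21 and 10 of 130 and 60. Excitatory motor neuron markers summed to 3298, 2624 and 2429 CPM under Stress and to 1627 and 1971.5 CPM in Control. Of the 22 marker lists, 4 lay above both Controls in every Stress library (excitatory motor neurons, glia, pericytes, vascular endothelium) and 0 below. Their part in these results was not tested.

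The difference between the classes was tested by itself. The stress effect on Gria1 in neuron-like nuclei minus that in glia-like nuclei was −1.33 ± 0.39 on the log2 scale (edgeR interaction with library as a block, adjusted p = 0.188), the smallest p of the 21 receptor genes tested. No receptor gene passed, where 0.207% of 8206 genes did (17 by edgeR, 0.0487% as higher and 0.158% as lower; 1 by DESeq2, 0.0122%). Unadjusted, 3 of the 21 receptor genes and 702 of all genes (8.55%) had a p under 0.05. A different response of Gria1 in the 2 classes was therefore not shown.

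Dexamethasone was compared with the same 2 Control libraries. With 1 library, its spread is assumed to be that of the other groups, and its counts were made with Cell Ranger 5.0.1 where the others were made with 4.0.0, so treatment, library and software version cannot be told apart. In glia-like nuclei 1 receptor gene passed. Gabrg3 (ENSMUSG00000055026, chr7:56716465-57387188, minus strand, GRCm38) fell, with 4, 16 and 20 UMIs under Stress, 2 under Dexamethasone and 26 and 9 in Control. As levels these were 12.9, 33.5 and 22.9 CPM under Stress, 2.94 CPM under Dexamethasone and 55.5 and 20.5 CPM in Control, and Dexamethasone lay below every other library. The log2 fold change was −3.52 ± 0.92 (edgeR adjusted p = 0.0259), where 6.09% of 7699 genes were called, 5.44% as higher and 0.649% as lower. DESeq2 called 4.09% of its genes. The ratio of Dexamethasone to Control was 0.0763, with a 95% exact counting interval of 0.00889 to 0.297. That interval takes each UMI as independent of the others. Over all 6 libraries the 77 glial Gabrg3 UMIs lay in 47 nuclei, with up to 9 in 1 nucleus. Frzb nuclei held 22 of the 26 UMIs of Control 1. The glial levels spanned those of epithelium-like (14.5 CPM) and fibroblast-like nuclei (36.4 CPM), and in the other named classes the ratio was 0.814 (0.347 to 1.82). The call ended without Control 1 (log2 fold change −2.62, adjusted p = 0.225), with no mitochondrial limit (−0.51, adjusted p = 0.565) and in the Frzb cluster alone (−1.43, adjusted p = 0.706). Under the stricter filter of nuclei and in the Rnf122 cluster alone Gabrg3 had too few counts for the filter on low counts and was not tested. In the Frzb cluster it had 19.2 CPM under Dexamethasone, from 2 UMIs, against 71.7 and 23.9 CPM in Control. In the Rnf122 cluster it had 1, 13 and 19 UMIs under Stress, 0 under Dexamethasone and 1 and 1 in Control. DESeq2 gave the gene no adjusted p. Gabrg3 also overlaps 3 annotated genes on its own and 3 on the opposite strand.

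Gria1 in glia-like nuclei had 147 CPM under Dexamethasone against 72.5 and 75.3 CPM in Control, a log2 fold change of 1.08 ± 0.32 that did not pass (edgeR adjusted p = 0.0542). It passed under 5 of the alternatives, at adjusted p between 0.0293 and 0.0464, and turned to −1.54 in the Frzb cluster alone, where Dexamethasone had 3 UMIs. Since Stress and Dexamethasone share their Control libraries, the 2 results are not independent of each other. Gabrb1 had a log2 fold change of 1.20 ± 0.42 (adjusted p = 0.102) and Grik4 one of −1.18 ± 0.42 (adjusted p = 0.108). Of the 15 receptor genes tested, 10 were above 0 and the median was 0.12, against −0.05 over all genes. Smooth muscle markers summed in glia-like nuclei to 733 CPM under Dexamethasone and to 149 and 185 CPM in Control, and lymphatic endothelium markers to 218 CPM under Dexamethasone and to 59.7 and 59.3 CPM in Control. Sensory neuron markers summed there to 67.7 CPM under Dexamethasone and to 17.1 and 15.97 CPM in Control, and excitatory motor neuron markers to 274 CPM under Dexamethasone and to 126 and 89.0 CPM in Control. Other lists fell: epithelium markers summed to 241 CPM under Dexamethasone and to 397 and 883 CPM in Control. Fibroblast markers summed to 129 CPM under Dexamethasone and to 207 and 260 CPM in Control. Of the 22 marker lists, 10 lay above and 10 below both Controls in this library, and their part in these results was not tested.

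In neuron-like nuclei no receptor gene of the 26 tested passed under Dexamethasone, where 0.0901% of 8877 genes did (8 by edgeR, all higher; 18 by DESeq2, 0.246%). At an unadjusted p under 0.05 there were 824 genes (9.28%) and 1 receptor gene. Grik1 had the smallest p, with 433 CPM under Dexamethasone against 796 and 724 CPM in Control (log2 fold change −0.86 ± 0.37, edgeR adjusted p = 0.511). Grin1 followed with 68.6 CPM against 99.7 and 104.7 CPM (−0.61 ± 0.32, adjusted p = 0.594). Both Dexamethasone values were the lowest of the 6 libraries. The median over the receptor genes was −0.19, with 9 above 0, against −0.01 over all genes. That library held 28 neuron-like nuclei, 3 of them Sst neurons. Smooth muscle markers summed in neuron-like nuclei to 1034 CPM under Dexamethasone and to 273 and 229 CPM in Control, and glia markers to 605 CPM under Dexamethasone and to 288 and 226 CPM in Control. Of the 22 lists, 10 lay above and 4 below both Controls, and their part was not tested.

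**Figure D5:**
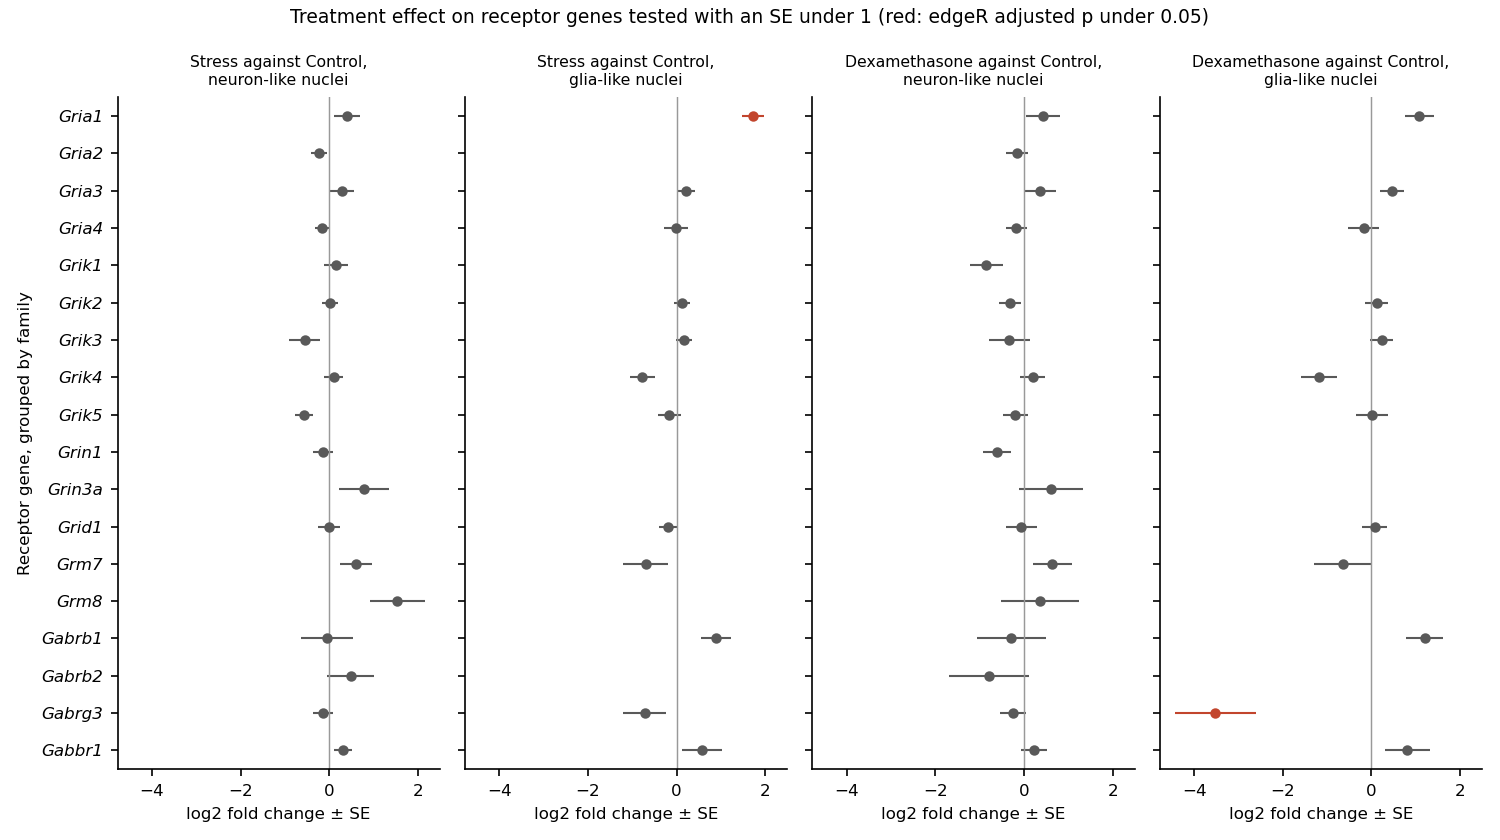
Log2 fold change (points) with standard error (bars) of receptor genes tested in each of the 4 comparisons of a treatment with Control, positive where the treatment is higher; red marks an edgeR adjusted p under 0.05 over all genes, and genes with a standard error of 1 or more are not drawn. Gria1 is the red point in glia-like nuclei under Stress (1.72) and Gabrg3 the one under Dexamethasone (−3.52); no gene is red in neuron-like nuclei.

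The machinery around these receptors was read from a list of 80 genes for transporters, enzymes, scaffolds and adhesion molecules, auxiliary subunits and kinases. That list, too, was chosen with earlier results of these data known. Under Stress 0 of 48 tested genes passed in neuron-like nuclei by edgeR, with 8 at an unadjusted p under 0.05 (10.3% of all genes), and 1 of 29 in glia-like nuclei, where Homer1 rose and 2.09% of all genes were called. Homer1 encodes a postsynaptic scaffold that binds group I metabotropic receptors and has a short form induced by activity. Its glial level was 503, 695 and 635 CPM under Stress, 568 CPM under Dexamethasone and 215 and 57.0 CPM in Control. Both treatments lay above both Controls, with log2 fold changes of 2.11 ± 0.37 under Stress (edgeR adjusted p = 0.00894) and 2.13 ± 0.42 under Dexamethasone (adjusted p = 0.00330). In the Rnf122 cluster alone these were 2.48 and 2.17, and both passed (adjusted p = 0.00320 and 0.00357). In the Frzb cluster alone they were 0.60 and −0.12, and neither passed. By DESeq2 the adjusted p was 0.0811 under Stress and 0.22 under Dexamethasone, and the Stress call also ended under the stricter filter of nuclei (edgeR adjusted p = 0.243), without Stress 2 (edgeR adjusted p = 0.0582) or Stress 3 (0.069). Under the stricter filter the Dexamethasone call ended too (edgeR adjusted p = 0.083).

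Under Dexamethasone 3 of 34 list genes passed in glia-like nuclei, 2 higher and 1 lower, where 6.09% of all genes were called (5.44% higher and 0.649% lower). The 2 higher ones were Homer1 and Nlgn2. Nlgn2 encodes the neuroligin of inhibitory synapses, with 79.4 CPM under Dexamethasone against 23.5 and 29.7 CPM in Control (log2 fold change 1.66 ± 0.41, edgeR adjusted p = 0.0174). The call ended under stricter filters on nuclei (edgeR adjusted p = 0.164), without Control 1 (edgeR adjusted p = 0.0759), in the Rnf122 cluster alone (edgeR adjusted p = 0.211) and by DESeq2 (adjusted p = 0.203). In neuron-like nuclei 0 of 51 passed under Dexamethasone by edgeR (0.0901% of all genes), with 6 at an unadjusted p under 0.05 (9.28% of all genes). No transporter, enzyme, auxiliary subunit or kinase of the list passed in any of these 4 comparisons.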

How the data were processed

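Nuclei of the mouse colon were measured by droplet single-nucleus RNA sequencing in 6 libraries. The authors deposited whole-number UMI counts per gene and barcode, made with Cell Ranger 4.0.0 for 5 libraries and 5.0.1 for Dexamethasone, per the file headers; the submitters' processing notes name Cell Ranger 5 and 5.0 and the mm10 build. The deposited gene and barcode names were used as labels. Whether intronic reads were counted, and with which strand setting, is not given in the sources used here.

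A barcode was kept if it had 300 genes or more and no more than 5% of its UMIs from mitochondrial genes (3461), and 31 doublets found by scrublet in each library were removed (0.896%). Counts were scaled to 10000 per nucleus, and 2000 variable genes, 30 principal components, 15 neighbours and Leiden resolution 1.0 gave 23 clusters (scanpy 1.11.5). The receptor genes, mitochondrial, ribosomal, sex-linked, immediate-early and glucocorticoid-induced genes were kept out of the clustering. Clusters were named from marker lists. Members and lists were chosen with earlier results of these data known.

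UMIs were summed per library and class and tested with edgeR 4.0.16 (TMM, filterByExpr, quasi-likelihood test, Benjamini-Hochberg over all genes, threshold 0.05). Stress was fitted with the Stress and Control libraries, and Dexamethasone with all 6. DESeq2 1.42.0 was an alternative. The difference between classes was an interaction with library as a block. CPM are UMIs per 1000000 UMIs of the class. Levels by class and cluster carry no test. Depth per class ranged from 245279 to 1370067 UMIs a library in neuron-like and from 310277 to 873097 in glia-like nuclei, and intervals and limits of a count of 0 cover counting error only. The fit was also run on simulated data with 200 changed genes. That simulation gave all genes the same dispersion and had no differences in cluster make-up. It cannot show how the fit does on these libraries, and no result here rests on it.

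Genes were named where they passed in any comparison, had one of the 3 smallest p-values in a comparison of a treatment with Control, were among the 14 with most UMIs in neurons or the 8 in glia, or were at least 5 times higher in another class; the levels of other members are given as description, and a few genes that this rule takes are not reported here. Gene coordinates are from GENCODE M21 (GRCm38). Alternatives left out each Stress or Control library, changed the filters, doublets, clustering, normalization and test, and added the replicate number as a block. For Stress that block left out Stress 3, whose number no Control library shares.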

Additional observations from a re-analysis of the deposited data

Results flagged for a closer look

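Dlgap2, which encodes a scaffold of the postsynaptic density, was the 1 gene, of the 47 tested among the 80 around the receptors, whose stress effect was called as different between neuron-like and glia-like nuclei, where 0.207% of 8206 genes were called (log2 difference −6.58 ± 1.40, edgeR interaction, adjusted p = 0.0411). Glia-like nuclei held 2, 5 and 16 Dlgap2 UMIs under Stress, 0 under Dexamethasone and 0 and 0 in Control. Neuron-like nuclei held 53, 386 and 460 UMIs under Stress, 205 under Dexamethasone and 223 and 158 in Control. As levels these neuronal counts were 216, 310 and 336 CPM under Stress, 361 CPM under Dexamethasone and 359 and 447 CPM in Control. Every Stress library thus lay below both Controls in neuron-like nuclei. Both glial Control libraries were at 0, so the size of the fitted value depends on the prior count and is no bound. The call was lost with DESeq2 (adjusted p = 0.663), under the stricter filter of nuclei (0.142), with no mitochondrial limit (−1.59, adjusted p = 0.205), with doublets kept (0.0784), and without Control 1 (0.192), Control 2 (0.277) or Stress 3 (0.2096).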

How the results depend on the processing

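Gria1 in glia-like nuclei under Stress kept its direction and its call in each alternative except the Rnf122 cluster alone (1.30, not called), and outside single clusters had log2 fold changes between 1.40 and 1.87. The receptor sum in neuron-like nuclei was 10767 CPM with no mitochondrial limit, against 12523 CPM. Counts of genes called moved more, and the cause was not tested. For Stress in neuron-like nuclei (0 genes) DESeq2 called 16, and edgeR without a filter on low counts 142, with 1 receptor gene (Grm8). For Stress in glia-like nuclei (137) the count was 32 under the stricter filter of nuclei, 298 with no mitochondrial limit (2 receptor genes, Gria1 and Grik4), 18 in the Frzb and 74 in the Rnf122 cluster alone (0 receptor genes in the Rnf122 cluster), and 35 to 174 leaving out 1 library (35 without Stress 3, 49 without Stress 2, 84 without Control 2).

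For Dexamethasone in neuron-like nuclei (8) the count was 18 with DESeq2, 190 without the filter on low counts (1 receptor gene, Grm5), 38 with no mitochondrial limit, 2 at 2 times the clustering resolution, and 0 with doublets kept, with the receptor genes in the clustering, at the lower resolution or with the low-UMI Penk cluster added. It was 0 to 28 leaving out 1 library (0 without Control 1 or Control 2, 28 without Stress 1, 19 without Stress 2, 17 without Stress 3). For Dexamethasone in glia-like nuclei (469) it was 211 with DESeq2, 233 under the stricter filter, 75 and 258 in the Frzb and Rnf122 clusters alone, and 312 (without Control 2) to 491 leaving out 1 library. Receptor genes called there (1) numbered 0 with DESeq2, with no mitochondrial limit and in either cluster alone, 2 under the stricter filter (Gabrb1 and Gria1) and with doublets kept, and 0 (without Control 1) to 2 (without Stress 2 or Stress 3) leaving out 1 library. For the difference between classes (17) the count was 1 with DESeq2, 41 without the filter, 82 with no mitochondrial limit, 3 with doublets kept, and 4 (without Control 2) to 55 (without Stress 2) leaving out 1 library, with 10 without Control 1 and 8 without Stress 3.

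Log2 fold changes that did not pass turned sign in 5 cases outside single clusters: Gabrg3 to 0.0057 under Stress in neuron-like nuclei without Stress 2, to 0.18 in glia-like nuclei and to −0.30 in the difference without Control 1, and, under Dexamethasone in neuron-like nuclei with the stricter filter, Gabrg3 to 0.032 and Grin1 to 0.12. In the Frzb cluster alone, with 19 nuclei of Dexamethasone, Gria1 turned to −1.54, Gabrb1 to −1.73, Homer1 to −0.12 and Nlgn2 to −0.42. Leaving out 1 library at a time gave Gabrg3 ranges of −0.38 to 0.0057 (Stress, neuron-like), −1.25 to 0.18 (Stress, glia-like) and −0.30 to 1.01 (difference). The cause was not tested. Over the single genes named, 272 alternatives gave the same call and direction, 23 a lost call, 8 a gained one and 9 a turned sign.

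The replicate numbers are not said to pair libraries. Deviations of same-numbered libraries correlated at 0.073 in neuron-like and −0.11 in glia-like nuclei over 2 shared numbers. With the number as a replicate block, 0 and 130 genes were called under Stress in neuron-like and glia-like nuclei, and 73 and 436 under Dexamethasone, with 2 receptor genes (Gabrg3 and Gria1) in the glia; Gria1 under Stress had a log2 fold change of 1.86.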
